A study of Mus musculus with 79 samples.

Results

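The response to 3-deazaneplanocin A (DZnep) was compared gene by gene between cultured mouse embryonic fibroblasts (MEFs) and the suprachiasmatic nucleus (SCN) of mice. The DZnep minus control change on the log2(FPKM + 1) scale was averaged over times, once in 12 fibroblast libraries and once in 31 SCN libraries, out of 79 libraries in the study. A gene entered a comparison when it reached 1 FPKM (fragments per kilobase of transcript, scaled to the library's total) in at least 3 libraries of that system. This left 10896 genes in fibroblasts, 13312 genes in the SCN and 9752 genes common to both, which are the genes compared below. Responses are called shared, opposite or specific to a system by limma at an adjusted p under 0.05, and a response is called specific only where the difference between the systems passed its own test.

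The fibroblasts had a C57BL/6J background, were taken from embryos, and were grown to confluence. All of them received 100 nM dexamethasone for 1 h, which sets the phase of the cellular clock. They were kept with Dznep in its solvent DMSO (6 libraries) or with DMSO (6 libraries) and harvested at circadian time (CT) 12 or CT24, with 3 libraries per group. The mice were C57BL/6 animals aged 10 weeks whose hypothalamus was infused with DZnep (16 libraries) or saline (15 libraries). Their SCN was punched out at CT3, CT9, CT15 or CT21, with 4 libraries per group except 3 for saline at CT21. Per the labels these are biological replicates, but nothing says whether MEF replicates came from separate embryos, so that p-values measure the spread between these libraries. Neither the dose nor the length of DZnep exposure is stated in the labels. The systems also differ in RNA extraction, in library kit (TruSeq RNA v2 for MEFs, a stranded total RNA pico-input kit for the SCN), in times and in delivery, and these cannot be told apart from the tissue. A punch holds several cell types, and a change in cell number and a change in RNA per cell cannot be told apart in it.

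AHCY hydrolyses S-adenosylhomocysteine, the product left when a methyltransferase uses S-adenosylmethionine. DZnep inhibits AHCY, so that S-adenosylhomocysteine builds up and holds back methyltransferases that act on histones, DNA, RNA and proteins, and it is widely used to lower the trimethylation of histone H3 lysine 27 made by EZH2 in the Polycomb repressive complex PRC2. The SCN is the hypothalamic nucleus that acts as the master circadian clock of mammals, while fibroblasts hold a cell-autonomous clock of the same genes, and the study asked how AHCY bears on circadian gene expression.

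Library sums lay between 258374 and 366414 FPKM in fibroblasts and between 250552 and 322464 FPKM in the SCN, and the read depth behind them is unknown. Of 8 SCN neuron markers, 7 stayed under 1 FPKM in every fibroblast library, and none did so in the SCN. All 7 fibroblast markers were present in the MEFs, where their sum was 2316 to 3069 FPKM with DZnep and 3706 to 4910 FPKM with DMSO. The summed level of 8 SCN neuron markers in the punches was 270 to 743 FPKM with DZnep and 241 to 612 FPKM with saline. Replicate 2 of the DMSO fibroblasts at CT24 stood apart, with 196 FPKM of the nuclear RNA Malat1, against 42.1 to 96.5 FPKM in the other DMSO libraries. Replicate 2 of the saline SCN at CT9 also stood apart, with a summed level of 6 microglia markers of 218 FPKM. Their median was 36.9 FPKM with DZnep and 34.8 FPKM with saline. Malat1 was lower in the SCN with DZnep, at 515 to 925 FPKM (median 784), against 844 to 1246 FPKM (median 1068) with saline, a log2 change of −0.49 ± 0.09 (SE, adjusted p = 0.000195). Whether the balance of nuclear and cytoplasmic RNA took part in the SCN results was not tested.

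DZnep changed more genes, and by more, in fibroblasts than in the SCN. Of the common genes, 3172 were higher (32.5%) and 3200 lower (32.8%) in fibroblasts, while 1839 were higher (18.9%) and 1737 lower (17.8%) in the SCN. The median absolute log2 change over the common genes was 0.27 in fibroblasts and 0.074 in the SCN, with median standard errors of 0.067 and 0.039. A called change of 2-fold or more was found for 154 higher and 255 lower genes in fibroblasts, and for 0 higher and 1 lower gene in the SCN. The share of called genes that were higher was 49.8% in fibroblasts and 51.4% in the SCN, but 56.1% and 63.2% on the values as deposited, without the rescaling of libraries to a common median.

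The responses overlapped in direction for the larger part of the genes called in both systems. Of 2442 such genes, 872 were higher in both (8.94% of the common genes), 942 were lower in both (9.66%), and 628 went opposite ways (6.44%). The same-direction genes made up 74.3% of those called in both. Among the 2246 genes called in neither system 51.8% had the same sign. That share is no yardstick for the first, since genes that failed both tests have changes small against their standard errors. Seen from the fibroblasts, 27.5% of the genes that were higher there were also higher in the SCN and 8.89% were lower. Of the genes that were lower in fibroblasts, 29.4% were also lower in the SCN and 10.8% were higher. Seen from the SCN, 47.4% of the higher genes were also higher in fibroblasts and 54.2% of the lower genes were also lower. Among the shared genes, the fibroblast change was the larger for 1710 of 1814. Of the shared genes, 717 of those that were higher and 818 of those that were lower had that sign at both fibroblast times and all 4 SCN times. On the values as deposited, 62.2% of the shared genes were higher, against 48.1% after rescaling.

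Across the common genes the log2 changes of both systems had a Pearson r of 0.30 and a Spearman coefficient of 0.29, as the plot of fibroblast against SCN changes shows. These are descriptions across genes, which are not independent replicates, and the systems share no library. The r was 0.279 to 0.321 within 3 equal groups of genes by transcript length, 0.284 to 0.298 within 3 by GC content, and 0.281 without the cytosolic ribosomal protein genes. Length and GC content had r values of 0.147 and −0.101 with the fibroblast change and of 0.043 and −0.089 with the SCN change.

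**Figure D1:**
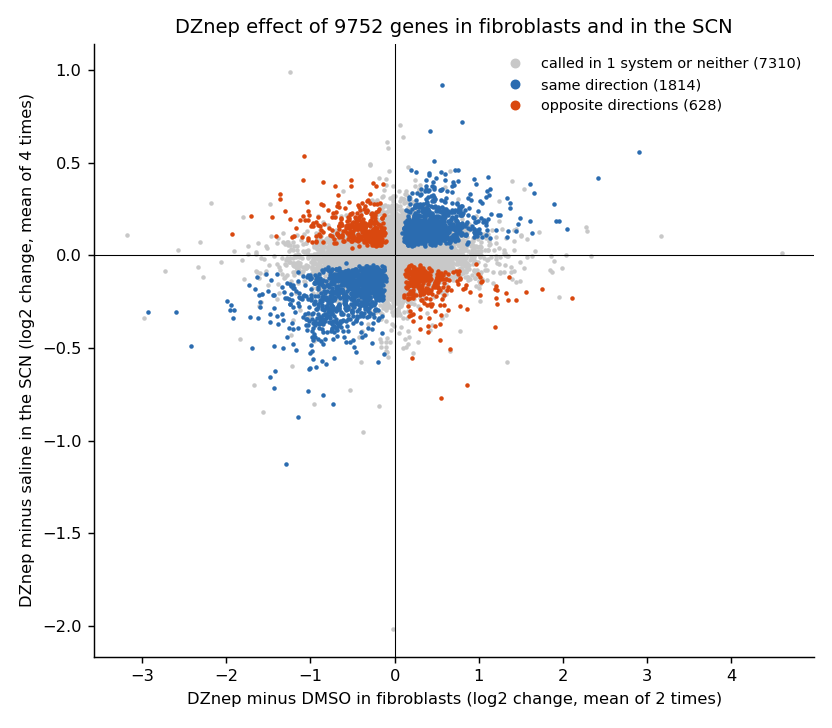
DZnep minus control log2 changes of the 9752 common genes, with the fibroblast change on the horizontal and the SCN change on the vertical axis; genes are coloured by whether they were called in the same or in opposite directions. The cloud is wider along the fibroblast axis, and 1814 genes called in the same direction outnumber 628 called in opposite directions.

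The test of the difference called 2752 genes with a higher (28.2%) and 2818 with a lower (28.9%) fibroblast change than SCN change. Of 3930 genes called in fibroblasts but not in the SCN, 3198 had a called difference, and these are the genes specific to fibroblasts, 1647 higher and 1551 lower. Of 1134 genes called in the SCN but not in fibroblasts, 374 had a called difference, 199 higher and 175 lower. Of the shared genes, 1157 also differed in size between the systems.

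The transcript of the target enzyme itself did not pass the test in either system. Ahcy lies at chr2:155059310-155074497 (minus strand), by GENCODE vM21 on GRCm38, the build of the files and of all gene positions given here. It had 18.95, 24.9 and 31.5 FPKM (lowest, median, highest) in fibroblasts with DZnep, against 13.7, 32.6 and 38.4 FPKM with DMSO. SCN levels of Ahcy were 8.31, 9.28 and 10.8 FPKM with DZnep, against 7.37, 8.88 and 12.2 FPKM with saline. The ranges overlapped in both systems, and the lowest fibroblast value came from the DMSO library that stood apart. The log2 change was −0.29 ± 0.15 (SE, adjusted p = 0.118) in fibroblasts and −0.00 ± 0.04 (adjusted p = 0.996) in the SCN. Without that library the fibroblast change was −0.46 and passed the test. The difference between systems was −0.29 (adjusted p = 0.0404) and was lost on leaving out any of 8 libraries. A transcript level does not report the enzyme's activity, which is what the inhibitor acts on.

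The catalytic PRC2 subunit and its partners differed between the systems. Ezh2 (chr6:47530139-47595341, minus strand), the histone H3 lysine 27 methyltransferase, had 17.3, 22.5 and 28.7 FPKM in fibroblasts with DZnep and 16.5, 23.2 and 28.2 FPKM with DMSO, nearly the same range. SCN levels of Ezh2 were 3.64, 4.26 and 4.72 FPKM with DZnep and 2.66, 3.21 and 4.02 FPKM with saline, so that most DZnep libraries lay above the saline ones. Its log2 change was −0.08 ± 0.05 (adjusted p = 0.207) in fibroblasts and 0.27 ± 0.04 (adjusted p = 3.77e-05) in the SCN, and the difference of −0.35 was called (adjusted p = 0.00138). Eed, the subunit that binds trimethylated lysine 27, rose in fibroblasts to 21.7, 24.5 and 26.7 FPKM with DZnep, against 11.6, 16.2 and 19.8 FPKM with DMSO, and these ranges did not overlap. Its change was 0.54 ± 0.05 in fibroblasts and 0.08 ± 0.04 in the SCN, where it did not pass. Suz12, the scaffold of PRC2, rose by 0.28 in fibroblasts and was at −0.04 in the SCN, and both Eed and Suz12 had called differences (0.46 and 0.32).

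Over 22 Polycomb genes tested in both systems, 7 were higher and 12 lower in fibroblasts, and 5 were higher and 5 lower in the SCN. The backgrounds were 32.5% and 32.8% of common genes in fibroblasts and 18.9% and 17.8% in the SCN, so that apart from the genes lower in fibroblasts the shares were near those of all genes. The median change was −0.23 in fibroblasts and −0.01 in the SCN, against 0.00 in both for all common genes. Rbbp4 and Cbx8 rose in both, and Rbbp7, Phf1, Kdm6b and Cbx7 fell in both. Kdm6b, a demethylase that removes the PRC2 mark, fell by 0.67 in fibroblasts and by 0.28 in the SCN. Phf1, a PRC2 accessory subunit, fell by 0.47 and by 0.22. Cbx6 and Phc1, subunits of the PRC1 complex that reads the mark, went opposite ways: −0.29 and −0.35 in fibroblasts, 0.17 and 0.13 in the SCN.

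Of the gene lists described here, that of the cytosolic ribosome had the most genes lower in both systems. All 30 ribosomal protein genes of the list fell in fibroblasts and 29 of 30 fell in the SCN, against a background of 32.8% and 17.8% of common genes. The median change was −0.85 in fibroblasts and −0.33 in the SCN, and for 25 genes the difference was called, with the fibroblasts lower. Among all common genes the share with a called lower fibroblast change was 28.9%. The member outside the SCN calls was Rplp1, at −1.03 in fibroblasts and 0.01 in the SCN. With quantile normalization 23 of the 30 passed in fibroblasts, with a median of −0.37 there and −0.25 in the SCN, and the difference was called for 12 lower and 2 higher genes. Many ribosomal protein genes have processed pseudogenes, and how the authors' counting split reads between such copies is not given in the sources used here.

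Rpl14, a protein of the large subunit, had 113, 145 and 200 FPKM in fibroblasts with DZnep and 176, 324 and 420 FPKM with DMSO. SCN levels of Rpl14 were 104, 119 and 160 FPKM with DZnep and 138, 154 and 175 FPKM with saline. Most DZnep libraries lay under the control libraries in each system, with some overlap at the edges. Its change was −1.05 ± 0.11 (adjusted p = 7.37e-06) in fibroblasts and −0.40 ± 0.04 (adjusted p = 3.39e-09) in the SCN. Rps19, a protein of the small subunit, had 133, 187 and 265 FPKM with DZnep and 250, 444 and 722 FPKM with DMSO in fibroblasts, and 66.1, 81.2 and 97.7 FPKM with DZnep and 90.7, 103 and 118 FPKM with saline in the SCN. The DZnep libraries lay lower in both systems, with a small overlap of the ranges. It fell by 1.39 in fibroblasts and by 0.37 in the SCN, a called difference of −1.02. Rpl3, which lies near the peptidyl transferase centre, fell by 0.93 and by 0.60, the largest SCN change of the list. Its difference of −0.33 was lost on leaving out any of 6 libraries and was 0.10 with quantile normalization.

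The same direction was seen in related symbol families, which were chosen after their values were seen. Of all 80 cytosolic ribosomal protein genes tested in both systems, 75 fell in fibroblasts, 70 in the SCN and 69 in both. The backgrounds for lower genes were 32.8%, 17.8% and 9.66% of common genes. Among 10 host genes of small nucleolar RNAs (snoRNAs, which guide the chemical modification of ribosomal RNA), 9 fell in fibroblasts, 10 in the SCN and 9 in both, with medians of −0.82 and −0.35. Snhg12 (chr4:132308623-132311024, plus strand) had 13.3, 16.4 and 21.9 FPKM with DZnep and 26.3, 31.2 and 36.1 FPKM with DMSO in fibroblasts. SCN levels of Snhg12 were 5.39, 7.40 and 11.9 FPKM with DZnep and 10.2, 13.4 and 19.4 FPKM with saline. The fibroblast ranges were separate and the SCN ranges overlapped little, and the changes were of like size, −0.86 ± 0.08 and −0.76 ± 0.07. Gas5, another host gene, changed by −1.26 and −0.39, and Eef1a1, which brings aminoacyl-tRNA to the ribosome, by −0.97 and −0.39.

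Transcripts of ribosomal protein genes, of Eef1a1 and of several snoRNA hosts are known to begin with a run of pyrimidines, the terminal oligopyrimidine (TOP) sequence, through which growth signals set their translation and stability. The windows below show such runs at the RefSeq starts (GRCm38.p6) of 4 genes that fell in both systems, from 20 bases before the start to base 10 of the transcript. Capitals mark the unbroken run of C or T letters that covers the first base.
Rpl14: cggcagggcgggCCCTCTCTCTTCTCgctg
Eef1a1: cgtgtgctggctccgCCCTCTTCCCgaggg
Snhg12: gtgcaggccgttctcagTCCTTTCTCgctt
Gas5: gactcagccgccatctcagCCTTTCggagc

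These windows lie at chr9:120571497-120571526 on the plus strand (Rpl14), chr9:78481715-78481744 on the minus strand (Eef1a1), chr4:132308658-132308687 on the plus strand (Snhg12) and chr1:161035146-161035175 on the plus strand (Gas5). A run of at least 6 C or T letters on the transcribed strand, covering the annotated first base, was present in 19 of 60 ribosomal protein genes with a RefSeq promoter (31.67%) and in 4 of 8 snoRNA hosts (50%). It was present in 12.95% of the genes that fell in both systems, in 6.31% of those that rose in both and in 8.16% of all common genes. A match is a description of the annotated start, and an annotation that is off by a few bases can hide or create it. By GENCODE, the genes Rpl14 and Snhg12 begin upstream of the windows shown, at chr9:120571444 and chr4:132308623, so that their runs lie at the RefSeq starts only.

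Of the lists described, that of ATF4, the transcription factor of the integrated stress response, and its amino acid targets had the most genes higher in both systems. Of 26 genes tested in both systems, 18 rose and 0 fell in fibroblasts, 19 rose and 0 fell in the SCN, and 14 rose in both, against backgrounds of 32.5%, 18.9% and 8.94%. The medians were 0.38 in fibroblasts and 0.21 in the SCN. At an unadjusted p under 0.05, 0 members fell in limma in either system. Without replicate 2 or without replicate 3 of DMSO at CT24, 1 member passed as lower in fibroblasts and went the opposite way in the SCN.

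Atf4 itself (chr15:80255184-80257541, plus strand) had 114, 147 and 194 FPKM with DZnep and 62.1, 102 and 139 FPKM with DMSO in fibroblasts. SCN levels of Atf4 were 39.2, 51.3 and 67.9 FPKM with DZnep and 29.0, 34.7 and 47.6 FPKM with saline. The DZnep libraries were mostly the higher ones in each system although the ranges overlapped. The changes were 0.56 ± 0.06 (adjusted p = 8.25e-06) and 0.45 ± 0.05 (adjusted p = 5.43e-07), and the difference of 0.11 was not called (adjusted p = 0.427, SE 0.11). It was higher at every time, by 0.40 and 0.71 at CT12 and CT24 in fibroblasts and by 0.39, 0.58, 0.31 and 0.51 at CT3, CT9, CT15 and CT21 in the SCN.

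Amino acid transporters followed, with larger changes in fibroblasts. Slc7a5, a carrier of large neutral amino acids, had 18.3, 22.98 and 27.1 FPKM with DZnep and 6.08, 10.5 and 13.3 FPKM with DMSO in fibroblasts, ranges that did not overlap. SCN levels of Slc7a5 were 8.77, 12.2 and 18.99 FPKM with DZnep and 7.64, 9.83 and 12.2 FPKM with saline, which did overlap. It rose by 1.09 in fibroblasts and by 0.35 in the SCN, and Slc7a1, the cationic amino acid carrier, by 1.03 and 0.28; each difference of 0.75 was called. Slc3a2, the heavy chain that partners Slc7a5, rose by 0.71 in fibroblasts and was at 0.09 in the SCN, where it did not pass.

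The aminoacyl-tRNA synthetases of the list, which charge tRNAs with amino acids, rose as well: Aars by 0.51 and 0.24, Cars by 0.89 and 0.25, Yars by 0.48 and 0.27, and Gars by 0.23 and 0.21 in fibroblasts and in the SCN. Of all 20 cytosolic synthetases tested, a family chosen after its values were seen, 11 rose and 5 fell in fibroblasts and 12 rose and 4 fell in the SCN. Of these, 9 rose in both, 2 fell in both and 2 went opposite ways. Among all common genes 32.5% rose and 32.8% fell in fibroblasts, and 18.9% rose and 17.8% fell in the SCN. The backgrounds in both systems were 8.94% higher, 9.66% lower and 6.44% opposite. Only the family's shares that rose lay well above these. Mitochondrial one-carbon enzymes rose too, Mthfd2 by 0.41 and 0.43 and Shmt2 by 0.69 and 0.34. Chac1, which degrades glutathione and is a classical ATF4 target, rose by 1.13 and 0.33, and Atf5, a related factor, by 0.38 and 0.41. Asns, asparagine synthetase, was at 0.19 in fibroblasts without passing and rose by 0.31 in the SCN. Members outside both calls were Slc7a11 (0.17 and −0.03), Ddit3 (−0.09 and 0.13) and Cebpb (0.20 and −0.26). Sesn2, which both p53 and ATF4 can induce, rose by 0.85 in fibroblasts and was at −0.05 in the SCN, a called difference of 0.90.

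ATF4 binds C/EBP-ATF response elements. The motif searched was TGATGNAAN with its reverse complement NTTNCATCA, on both strands, over 250 bases before and 50 bases from the RefSeq start. The windows below come from 4 members of the list whose promoter held it, of which Aars, Chac1 and Gars rose in both systems and Asns in the SCN. Capitals mark the motif.
Aars: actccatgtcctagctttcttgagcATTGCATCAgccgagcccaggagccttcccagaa
Chac1: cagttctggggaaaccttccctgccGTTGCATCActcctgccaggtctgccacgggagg
Gars: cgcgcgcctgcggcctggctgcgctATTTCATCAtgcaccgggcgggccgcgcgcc
Asns: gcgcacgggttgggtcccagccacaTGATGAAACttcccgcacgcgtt

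They are at chr8:111033704-111033762 (plus strand, Aars), chr2:119351023-119351081 (plus strand, Chac1), chr6:55037945-55038000 (plus strand, Gars) and chr6:7693210-7693257 (minus strand, Asns) of GRCm38.p6. The capitals begin 113 bases before the start in Aars, 194 before it in Chac1, 31 before it in Gars and 23 before it in Asns. The motif was present in 7 of the 22 list members with a promoter (31.82%), in 2.43% of the common genes and in 4.5% of all RefSeq promoters of that length. Among all genes that rose in both systems it was present in 3.3%. Slc7a11 and Vldlr also held it, and neither rose in fibroblasts, where they were at 0.17 and −0.15.

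Cholesterol synthesis genes, which the factor SREBP2 induces when sterols are low, were the other group lower in both systems. Of 22 genes, 14 fell and 1 rose in fibroblasts, 15 fell and 0 rose in the SCN, and 11 fell in both, against backgrounds of 32.8%, 17.8% and 9.66% for lower genes. The medians were −0.27 and −0.20. At an unadjusted p under 0.05 in limma, 0 rose and 16 fell in the SCN. Srebf2, which encodes SREBP2, had 17.9, 19.8 and 21.2 FPKM with DZnep and 24.4, 33.9 and 36.8 FPKM with DMSO in fibroblasts. SCN levels of Srebf2 were 21.1, 25.2 and 30.2 FPKM with DZnep and 22.3, 30.1 and 34.9 FPKM with saline. The fibroblast ranges were separate and the SCN ranges overlapped. It fell by 0.75 and by 0.24, and the difference of −0.51 was called. Fdps, farnesyl diphosphate synthase, fell by 0.81 and by 0.34.

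The fibroblast counts of this group differed between times, a difference that was not tested. At CT12, 16 of the 22 genes were lower and 1 higher, and at CT24, 4 were lower and 3 higher, with medians of −0.48 and −0.13. In the SCN the medians were −0.19, −0.30, −0.18 and −0.12 from CT3 to CT21. Insig1, the sterol sensor that retains SREBP2, was at −0.49 at CT12 and 0.43 at CT24 in fibroblasts. A sterol regulatory element, searched as TCACNCCAC on both strands of the same promoter windows as above, was present in 1 of 15 members with a promoter (Hmgcs1, 6.67%) and in 1.37% of the common genes. Hsd17b7 was the member called as higher in fibroblasts (0.55) and lower in the SCN (−0.13). On leaving out any of 17 SCN libraries, on the values as deposited or with quantile normalization, 0 members went opposite ways.

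Beyond the lists, the shared genes with the largest change in their weaker system were named by rule. Higher in both were Igf2, Fbln5, Ctgf, L3mbtl3, Gadd45g, Atf4, Cdc34 and Anxa8. Igf2 (chr7:142650766-142666816, minus strand), an imprinted growth factor, had 171, 201 and 223 FPKM with DZnep and 96.5, 112 and 118 FPKM with DMSO in fibroblasts, ranges that did not overlap. SCN levels of Igf2 were 9.40, 30.6 and 56.7 FPKM with DZnep and 9.72, 17.2 and 28.1 FPKM with saline, which overlapped widely. It rose by 0.80 ± 0.05 and by 0.72 ± 0.16. Igf2 is also a gene of the brain's coverings, and the summed level of 5 meningeal fibroblast markers in the punches was 10.6 to 53.9 FPKM (median 17.2) with DZnep and 10.3 to 26.5 FPKM (median 16.0) with saline. The part of these cells in the SCN values of Igf2, Fbln5, Ctgf and Anxa8 was not tested.

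Fbln5, an elastic fibre protein, had 20.6, 24.1 and 29.4 FPKM with DZnep and 11.5, 16.4 and 18.8 FPKM with DMSO in fibroblasts. SCN levels of Fbln5 were 5.28, 7.92 and 10.99 FPKM with DZnep and 2.67, 3.60 and 4.42 FPKM with saline. The ranges were separate in both systems. It rose by 0.57 in fibroblasts and by 0.92 in the SCN, and the difference of −0.35 was lost on leaving out any of 10 libraries. L3mbtl3, a reader of methylated lysine, rose by 0.47 and 0.51. Gadd45g, a stress-inducible growth arrest gene, rose by 0.75 and 0.46, and Cdc34, a ubiquitin-conjugating enzyme, by 1.11 and 0.42. Ctgf, a matricellular target of the YAP pathway, and the annexin Anxa8 rose far more in fibroblasts, by 2.91 and 2.42, than in the SCN, by 0.56 and 0.42. The SCN call of Ctgf was lost without replicate 2 of the saline libraries at CT21, at 0.44.

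Lower in both were Csf2ra, Snhg12, Arhgef25, Ptms, Zfp467, Meg3, Impdh2 and Rbm3. Impdh2 (chr9:108560286-108565584, plus strand), the rate-limiting enzyme of guanine nucleotide synthesis, had 13.1, 16.3 and 20.4 FPKM with DZnep and 17.5, 37.5 and 41.1 FPKM with DMSO in fibroblasts. SCN levels of Impdh2 were 10.2, 13.2 and 17.9 FPKM with DZnep and 16.9, 20.0 and 24.6 FPKM with saline. The ranges overlapped only at their edges, and it fell by 1.02 ± 0.14 and by 0.62 ± 0.05. Arhgef25, a guanine nucleotide exchange factor, fell by 0.73 and by 0.80, and Csf2ra, a subunit of the receptor for the cytokine GM-CSF, by 1.15 and by 0.87. Ptms, parathymosin, fell by 1.44 and by 0.72.

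Meg3 (chr12:109541001-109571726, plus strand), an imprinted noncoding RNA, had 10.4, 11.8 and 14.6 FPKM with DZnep and 27.0, 29.4 and 62.4 FPKM with DMSO in fibroblasts. SCN levels of Meg3 were 66.0, 116 and 176 FPKM with DZnep and 140, 181 and 225 FPKM with saline. It fell by 1.42 and by 0.63. The 62.4 FPKM came from the DMSO library that stood apart. Rbm3, a cold-inducible RNA-binding protein, fell by 1.01 and by 0.61, and its SCN change was −1.06 and −1.11 at CT3 and CT9 but −0.08 and −0.17 at CT15 and CT21. The plot of 8 genes by library sets shared, opposite and fibroblast-specific genes beside each other.

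**Figure D2:**
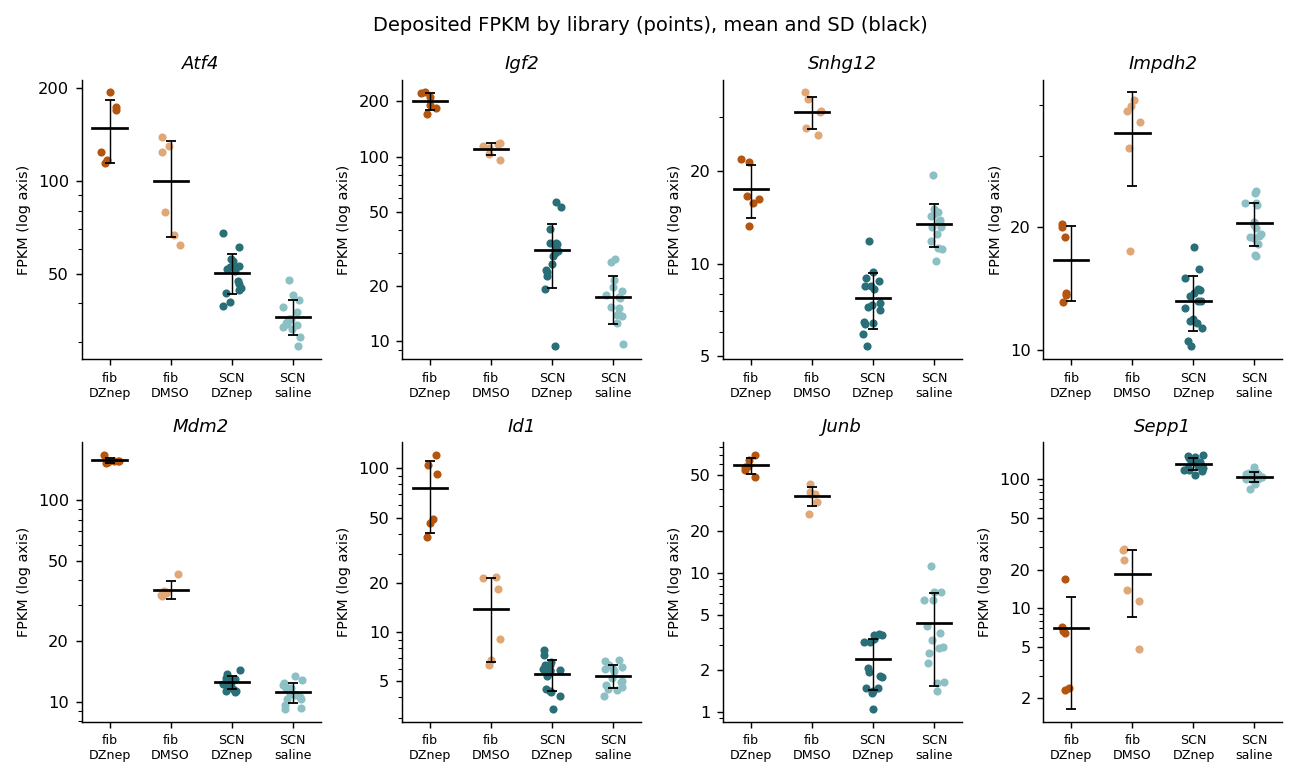
FPKM values of 8 genes in each library on log axes, with DZnep left of its control and fibroblasts left of the SCN in each panel; every point is a library and the bars give the mean and SD. Atf4 and Igf2 are higher and Snhg12 and Impdh2 lower with DZnep in both systems, Mdm2 and Id1 are separated mainly in fibroblasts, and Junb and Sepp1 go opposite ways.

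Of the genes that went opposite ways, 282 were higher in fibroblasts and lower in the SCN, and 346 were lower in fibroblasts and higher in the SCN. For 627 of these 628 genes the difference was called. Marcksl1, an actin-binding substrate of protein kinase C, had 58.0, 71.1 and 84.0 FPKM with DZnep and 24.2, 39.6 and 48.3 FPKM with DMSO in fibroblasts. SCN levels of Marcksl1 were 28.5, 38.0 and 69.7 FPKM with DZnep and 56.9, 62.9 and 75.8 FPKM with saline. The fibroblast ranges were separate, with DZnep above, and in the SCN most DZnep libraries lay below saline. The changes were 0.86 ± 0.08 and −0.70 ± 0.06, a difference of 1.56 (adjusted p = 6.38e-12).

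Junb (chr8:84974484-84978718, minus strand), an AP-1 transcription factor, had 48.0, 57.8 and 69.4 FPKM with DZnep and 26.3, 36.7 and 43.2 FPKM with DMSO in fibroblasts, and the ranges were separate. SCN levels of Junb were 1.05, 2.01 and 3.62 FPKM with DZnep and 1.42, 3.27 and 11.2 FPKM with saline, and the ranges overlapped. The 11.2 FPKM came from the saline library at CT9 that stood apart. The other saline libraries at CT9 had 2.67 to 3.67 FPKM, against 3.35 to 3.62 FPKM with DZnep. At CT3 the ranges were separate, with 4.15 to 7.21 FPKM with saline and 1.05 to 3.55 FPKM with DZnep. It changed by 0.66 and −0.51. The other genes of this kind were Zfp956 (0.39 and −0.38), the alpha tubulin Tuba4a (0.54 and −0.37), Ftsj3, a factor of ribosomal RNA processing (0.41 and −0.34), and Uap1l1 (0.56 and −0.32).

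In the other direction, Sepp1, the selenium carrier selenoprotein P, had 2.33, 6.54 and 17.0 FPKM with DZnep and 4.80, 18.9 and 28.6 FPKM with DMSO in fibroblasts. SCN levels of Sepp1 were 108, 132 and 154 FPKM with DZnep and 84.4, 104 and 124 FPKM with saline. The ranges overlapped in both systems, and the changes were −1.37 ± 0.31 and 0.30 ± 0.04. Mpst, a mercaptopyruvate sulfurtransferase, had 4.94, 12.6 and 17.5 FPKM with DZnep and 19.5, 24.8 and 26.6 FPKM with DMSO in fibroblasts, with no overlap, and changed by −1.09 there and by 0.41 in the SCN. Clk4, a kinase of splicing factors, changed by −0.52 and 0.41, and the centrin Cetn4 by −0.71 and 0.38. The detoxifying enzymes Gstm1 (−0.52 and 0.37) and Akr1e1 (−0.67 and 0.32) followed the same pattern. Gstm1 belongs to a family of near-identical genes, so that its values may include reads of its relatives.

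Targets of p53, the DNA damage and stress factor, had the highest fibroblast median of the lists described. Of 25 genes, 19 rose and 3 fell in fibroblasts, and 5 rose and 4 fell in the SCN. The difference was called as higher in fibroblasts for 19. Of all common genes, 32.5% rose and 32.8% fell in fibroblasts, and 28.2% had a called higher fibroblast change. In the SCN 18.9% rose and 17.8% fell, so that the SCN shares of the list were near those of all genes. The medians of the list were 0.81 and 0.01. Mdm2 (chr10:117688875-117710758, minus strand), the ubiquitin ligase that restrains p53, had 153, 156 and 167 FPKM with DZnep and 33.4, 34.8 and 43.2 FPKM with DMSO in fibroblasts. SCN levels of Mdm2 were 11.1, 12.5 and 14.3 FPKM with DZnep and 9.19, 10.9 and 13.3 FPKM with saline. The fibroblast ranges lay far apart and the SCN ranges overlapped. It rose by 2.05 ± 0.06 and by 0.15 ± 0.03, a difference of 1.91 (adjusted p = 1.43e-20).

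The growth arrest gene Cdkn1a rose by 1.5 in fibroblasts and was at 0.11 in the SCN, and the pro-apoptotic Pmaip1 rose by 2.03 and was at 0.01. Perp, a desmosomal p53 effector, rose by 3.17 and was at 0.11. Ccng1, Bax, Aen, Polk and Mdm2 were the 5 that rose in both, and Bbc3, Ei24 and Ercc5 rose in fibroblasts and fell in the SCN. Among all common genes 8.94% rose in both and 6.44% went opposite ways. Not every target rose: Sesn1, an antioxidant sestrin, fell in fibroblasts to 15.3, 19.7 and 24.1 FPKM with DZnep, against 32.5, 43.6 and 56.4 FPKM with DMSO, by 1.12. The transcript of p53 itself, Trp53, was at 0.09 and −0.01 and passed in neither system.

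DNA replication genes rose in fibroblasts. Of 20 genes, 17 rose and 0 fell in fibroblasts, and 2 rose and 0 fell in the SCN (Fen1 and Rrm1). A called higher fibroblast change was found for 15. The backgrounds were 32.5% and 32.8% of common genes in fibroblasts, 18.9% and 17.8% in the SCN and 28.2% for a higher fibroblast change. Both SCN shares of the list lay under their backgrounds. At an unadjusted p under 0.05 in limma, 0 fell in either system. The medians were 0.56 and 0.01, and by time 0.23 at CT12 and 0.84 at CT24 in fibroblasts, where 8 and 17 genes passed. Fen1, the flap endonuclease that trims Okazaki fragments, had 45.8, 52.6 and 55.3 FPKM with DZnep and 10.4, 22.9 and 34.9 FPKM with DMSO, with no overlap, and rose by 1.23. SCN levels of Fen1 were 3.04, 4.05 and 5.12 FPKM with DZnep and 2.70, 3.34 and 4.37 FPKM with saline, and rose by 0.22. Mcm4 and Mcm7, subunits of the replicative helicase, rose by 0.81 and 0.72 in fibroblasts and were at 0.04 and 0.00 in the SCN. Of the 31 genes of the list, 11 fell under the expression minimum of the SCN and are left out of these counts.

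Immediate early genes, which answer growth factors and neuronal activity within minutes, also rose in fibroblasts. Of 21 genes, 17 rose and 3 fell in fibroblasts, and 0 rose and 2 fell in the SCN (Junb and Ier3). A called higher fibroblast change was found for 12. Among all common genes 32.5% rose and 32.8% fell in fibroblasts, 18.9% rose and 17.8% fell in the SCN, and 28.2% had a higher fibroblast change. Both SCN shares of the list lay under those of all genes. At an unadjusted p under 0.05 in limma, 0 rose in the SCN as well. The medians were 0.73 and −0.05. Klf4, Egr1, Atf3 and Myc rose by 1.99, 1.28, 1.00 and 0.93 in fibroblasts and were at −0.07, 0.14, 0.02 and −0.05 in the SCN. Btg2, an antiproliferative gene that p53 also induces, had 35.5, 43.1 and 47.5 FPKM with DZnep and 9.70, 10.6 and 11.7 FPKM with DMSO in fibroblasts. It had 2.66, 3.34 and 3.88 FPKM with DZnep and 2.22, 3.40 and 6.15 FPKM with saline in the SCN. The fibroblast ranges were far apart, the SCN ranges lay within each other, and the changes were 1.85 and −0.08. In the SCN, 1 member passed as higher without the saline library at CT9 that stood apart, and likewise without replicate 4 of DZnep at CT3 or replicate 1 of DZnep at CT15.

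Glycolysis and hypoxia genes were lower in fibroblasts. Of 27 genes, 19 fell and 3 rose in fibroblasts, and 8 fell and 5 rose in the SCN. Both systems shared 7 falls, and 20 genes had a called lower fibroblast change. Of all common genes, 32.8% fell in fibroblasts, 17.8% in the SCN and 9.66% in both, and 28.9% had a lower fibroblast change. The share that rose was under the background of 32.5% in fibroblasts and near that of 18.9% in the SCN. The medians of the list were −0.71 and −0.06. Aldoa, aldolase A, had 107, 150 and 194 FPKM with DZnep and 253, 413 and 485 FPKM with DMSO in fibroblasts. SCN levels of Aldoa were 246, 303 and 330 FPKM with DZnep and 311, 330 and 379 FPKM with saline. It fell by 1.43 and by 0.21, with separate ranges in fibroblasts and a small overlap in the SCN. Bnip3, a mitophagy receptor induced by hypoxia, and Pdk1, a kinase that inhibits pyruvate dehydrogenase, fell by 1.37 and 1.21 in fibroblasts. In the SCN they were at −0.06 and −0.09. Pfkl, the liver-type phosphofructokinase, and Pgk1 fell in fibroblasts (−0.75 and −0.94) and rose in the SCN (0.14 and 0.08). Without the DMSO library at CT24 that stood apart, 4 members went opposite ways instead of 2. The plot of list medians sets these groups side by side.

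**Figure D3:**
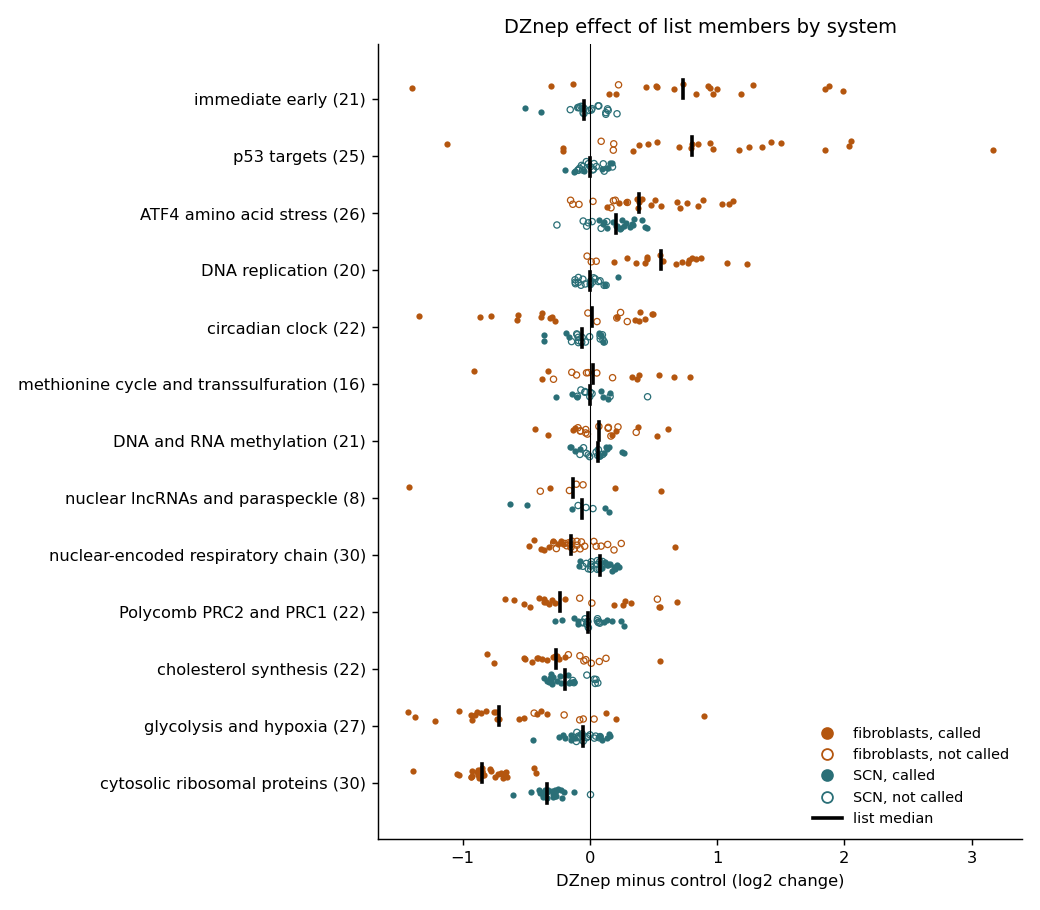
Median DZnep minus control log2 change of each gene list (black bars) in fibroblasts above the SCN, with a point for each member, filled where it passed the test, and the number of members beside the list's name. Cytosolic ribosomal proteins (−0.85 and −0.33) are low and ATF4 genes (0.38 and 0.21) high in both systems, while p53 targets (0.81 and 0.01) and glycolysis (−0.71 and −0.06) move in fibroblasts.

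Among genes with a mean of at least 3 FPKM in each system, those with the largest fibroblast-specific rise were Id1, Irgm1, Btg2, Dusp4, Hist1h4i and Thbd. Id1 (chr2:152736251-152737410, plus strand), an inhibitor of basic helix-loop-helix factors and a target of bone morphogenetic proteins, had 38.1, 71.0 and 120 FPKM with DZnep and 6.27, 13.7 and 21.7 FPKM with DMSO in fibroblasts. SCN levels of Id1 were 3.39, 5.83 and 7.76 FPKM with DZnep and 4.06, 5.22 and 6.80 FPKM with saline. The fibroblast ranges did not overlap and the SCN ranges nearly coincided. The changes were 2.33 ± 0.09 and −0.00 ± 0.08, a difference of 2.34 (adjusted p = 6.9e-14). Dusp4, a phosphatase of MAP kinases, rose by 1.85 in fibroblasts, and Thbd, thrombomodulin, by 1.5. Hist1h4i is 1 of several near-identical histone H4 genes, and its values may include reads of the others.

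Under the same minimum, those with the largest fibroblast-specific fall were Serpina3n, Calml4, Tgfbi, Ralgds, Olfml3 and Enpp2. Enpp2, which makes lysophosphatidic acid, had 5.76, 6.59 and 7.72 FPKM with DZnep and 15.2, 25.4 and 31.9 FPKM with DMSO in fibroblasts. SCN levels of Enpp2 were 22.8, 29.7 and 38.5 FPKM with DZnep and 21.8, 29.2 and 40.6 FPKM with saline. It fell by 1.74 in fibroblasts and was at 0.01 in the SCN. Calml4, a calmodulin-like gene, fell by 2.31 and was at 0.07.

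For 4 of these genes the SCN side rested on the saline library at CT9 that stood apart. It held 68.7 FPKM of Irgm1, 112 FPKM of Serpina3n and 59.0 FPKM of Tgfbi. Without it, the SCN changes of Serpina3n, Tgfbi and Olfml3 were 0.54, 0.49 and 0.38 and passed the test as higher, against 0.28, 0.21 and 0.28 with it. Then these 3 genes went opposite ways, with fibroblast changes of −2.19, −1.80 and −1.48. Irgm1, an interferon-inducible GTPase, was at 65.1, 66.0 and 68.8 FPKM with DZnep and 14.7, 15.9 and 17.3 FPKM with DMSO in fibroblasts, a rise of 1.96. Its SCN change was −0.22 with a standard error of 0.27, and 0.04 without that library.

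The genes specific to the SCN had smaller differences. Hmgn5, a nucleosome-binding protein, had 38.4, 52.4 and 60.0 FPKM with DZnep and 25.2, 31.3 and 39.1 FPKM with saline in the SCN, ranges that nearly separated. In fibroblasts it had 14.5, 17.4 and 22.01 FPKM with DZnep and 9.71, 17.5 and 21.3 FPKM with DMSO. It rose by 0.64 ± 0.04 in the SCN and was at 0.10 ± 0.15 in fibroblasts, where it passed at 0.26 without the DMSO library at CT24 that stood apart. Pot1a, a telomere-binding protein, had 5.68, 6.60 and 7.36 FPKM with DZnep and 3.81, 4.62 and 5.38 FPKM with saline, with no overlap. It rose by 0.41 in the SCN and was at −0.11 in fibroblasts, where it passed as lower without replicate 3 of DMSO at CT24. The others higher in the SCN alone by this rule were Dynlt1b (0.15), Taf15 (0.30), Ict1 (0.23) and Mrpl54 (0.38), whose fibroblast values were −0.43, −0.27, −0.31 and −0.10. Without the DMSO library at CT24 that stood apart, Ict1 passed as lower in fibroblasts, at −0.47, and so went opposite ways. Dynlt1b passed as lower there without any 1 of the DZnep libraries at CT12, and Taf15 without replicate 2 of DMSO at CT12 or replicate 1 of DMSO at CT24. Ict1 and Mrpl54 are parts of the mitochondrial ribosome. The SCN call of Dynlt1b, which has near-identical copies, was lost without replicate 3 of the saline libraries at CT21, at 0.13.

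Lower in the SCN alone were Pak3, Ago2, Srp54c, Dcun1d4, Hspa1a and Impact. Ago2, the slicer of RNA interference, had 14.1, 16.3 and 22.2 FPKM with DZnep and 17.9, 20.8 and 27.6 FPKM with saline, overlapping ranges, and fell by 0.31. It was at 0.39 ± 0.18 in fibroblasts, where it passed as higher without replicate 1 of DMSO at CT24 or replicate 3 of DZnep at CT12. Impact, an inhibitor of the eIF2 alpha kinase GCN2 that lies upstream of ATF4, had 73.3, 108 and 150 FPKM with DZnep and 108, 142 and 176 FPKM with saline, and fell by 0.41. It was at 0.16 in fibroblasts and passed there, at 0.23, without the DMSO library that stood apart. Hspa1a, an inducible heat shock protein with a near-identical copy, fell by 0.45 on average, but was at −1.45 at CT15 and between −0.20 and 0.01 at the other times. The differences of Pak3 and Dcun1d4 were lost on leaving out any of 6 and any of 3 libraries. Srp54c has near-identical copies and its values may include their reads. Without the DMSO library at CT24 that stood apart, Srp54c and Dcun1d4 passed as higher in fibroblasts, at 0.21 and 0.72, and so went opposite ways.

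Part of the nuclear-encoded genes of the respiratory chain rose in the SCN. Of 30 genes, 15 rose and 2 fell there, against a background of 18.9% and 17.8% of common genes. In fibroblasts 1 rose and 9 fell, against 32.5% and 32.8%, so that the share that fell was near the background. The medians were −0.15 in fibroblasts and 0.08 in the SCN. A called lower fibroblast change was found for 17 genes, against 28.9% of all common genes. The fibroblast count moved with the libraries: 17 fell without replicate 2 of DMSO at CT24, 4 rose without its replicate 3, and 5 fell on the values as deposited. Cox6c, a subunit of cytochrome c oxidase, had 504, 554 and 636 FPKM with DZnep and 423, 474 and 544 FPKM with saline in the SCN, and rose by 0.21. In fibroblasts it had 148, 235 and 321 FPKM with DZnep and 138, 287 and 345 FPKM with DMSO and was at −0.10. Cycs, cytochrome c, rose in both, by 0.67 and 0.23. Mitochondrial ribosomal proteins, a family chosen after its values were seen, had 21 of 49 members higher and 1 lower in the SCN, and 17 higher and 8 lower in fibroblasts, with 13 higher in both. The fibroblast share that was higher lay near the background of 32.5%, and the SCN share lay above its 18.9%. The share higher in both lay above its background of 8.94%. Without replicate 3 of DMSO at CT24, 27 were higher in fibroblasts.

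Enzymes that write, read or erase methyl groups on DNA and RNA showed no common direction. Of 21 genes, 5 rose and 4 fell in fibroblasts, both shares under the background of 32.5% and 32.8%. In the SCN 7 rose and 4 fell, against 18.9% and 17.8%, so that the share that rose lay above its background. At an unadjusted p under 0.05 in limma, 10 rose and 5 fell in the SCN. In fibroblasts 2 fell without replicate 1 or 2 of DMSO at CT12, replicate 2 of DZnep at CT12 or replicate 2 of DZnep at CT24. The 4 that rose in both, against 8.94% of all common genes, were Dnmt1, Ythdf1, Ythdf2 and Rnmt. Ythdf1, a reader of N6-methyladenosine, had 29.4, 32.1 and 33.0 FPKM with DZnep and 18.3, 19.8 and 21.1 FPKM with DMSO in fibroblasts. SCN levels of Ythdf1 were 8.16, 9.08 and 10.2 FPKM with DZnep and 6.27, 7.34 and 9.31 FPKM with saline. It rose by 0.61 and by 0.25, with separate ranges in fibroblasts. The maintenance DNA methyltransferase Dnmt1 rose by 0.38 and 0.13. Rnmt, the mRNA cap methyltransferase, rose by 0.21 and 0.08, and its SCN call was lost on leaving out any of 18 libraries.

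Around AHCY itself, 6 of 16 methionine cycle and polyamine genes rose and 3 fell in fibroblasts, and 4 rose and 3 fell in the SCN. Against backgrounds of 32.5% and 32.8% in fibroblasts and 18.9% and 17.8% in the SCN, no share stood far above that of all genes. Adk, adenosine kinase, which removes the adenosine that AHCY releases, had 39.0, 49.1 and 56.8 FPKM with DZnep and 27.4, 37.2 and 41.1 FPKM with DMSO in fibroblasts, and 15.9, 18.8 and 21.8 FPKM with DZnep and 14.2, 16.5 and 18.96 FPKM with saline in the SCN. The ranges overlapped slightly in fibroblasts and more in the SCN, and it rose by 0.37 and 0.14. Mtrr, which reactivates methionine synthase, rose by 0.55 and 0.11, and Nnmt, which methylates nicotinamide, fell by 0.91 and by 0.26. It was the member lower in both, and on leaving out any of 14 SCN libraries the list had 0 such members. Ahcyl1, an AHCY-like protein, and Mat2b, the regulatory subunit of the S-adenosylmethionine synthetase, went opposite ways: 0.39 and −0.33 in fibroblasts, −0.10 and 0.09 in the SCN. The SCN call of Mat2b was lost on leaving out any of 14 libraries, and that of Ahcyl1 on the values as deposited and with quantile normalization. Odc1, the first enzyme of polyamine synthesis, rose by 0.78 in fibroblasts and was at −0.07 in the SCN.

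Of 22 circadian clock genes, 7 rose and 10 fell in fibroblasts and 3 rose and 4 fell in the SCN, with medians of 0.02 and −0.06 and called differences for 7 higher and 8 lower. Apart from the genes that fell in fibroblasts, the shares that rose or fell were near or under the backgrounds of 32.5% and 32.8% in fibroblasts and of 18.9% and 17.8% in the SCN. A called difference was found for 28.2% (higher) and 28.9% (lower) of all common genes, not far from the shares of the clock genes. Since clock transcripts swing over the day, an average over 2 times in fibroblasts and 4 in the SCN cannot tell a level from a shift in phase. Dbp, a target of the CLOCK-BMAL1 activator, had 0.873, 1.94 and 3.45 FPKM with DZnep and 0.822, 5.44 and 13.3 FPKM with DMSO in fibroblasts. SCN levels of Dbp were 5.93, 19.004 and 45.5 FPKM with DZnep and 9.75, 28.9 and 54.0 FPKM with saline. The wide, overlapping ranges hold all times. It fell by 0.86 and by 0.36, with −0.11 and −1.62 at CT12 and CT24 in fibroblasts and −0.97, −0.13, 0.11 and −0.46 from CT3 to CT21 in the SCN. Per3, a period gene, fell by 0.78 and by 0.36.

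Hlf, a relative of Dbp, fell by 1.34 in fibroblasts and was at −0.10 in the SCN, a called difference of −1.24. Nr1d1, the repressor REV-ERB alpha, rose by 0.39 in fibroblasts and fell by 0.18 in the SCN, where it was −0.41 at CT3 and 0.32 at CT9. On the values as deposited its SCN call was lost, at −0.16. Cry1, a repressor of CLOCK-BMAL1, was 1.21 at CT12 and −0.23 at CT24 in fibroblasts. The kinase Csnk1d, which phosphorylates period proteins, rose by 0.21 and 0.07. In the SCN, 8 clock genes passed as lower, instead of 4, without the saline library at CT9 that stood apart.

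Of 8 nuclear noncoding RNAs and paraspeckle proteins, Meg3 and Nono fell in both systems and Pspc1 rose in both, by 0.56 and 0.12. Among all common genes 9.66% fell in both and 8.94% rose in both, and 8 genes are too few to set against these shares. Nono, a core paraspeckle protein, fell by 0.31 and by 0.14. Malat1 was at −0.16 in fibroblasts, and its difference between systems of 0.33 was 0.66 and called without the DMSO library at CT24 that stood apart.

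The likeness of the systems was seen at each pair of times. The r across common genes was between 0.15 (fibroblasts at CT12 and SCN at CT15) and 0.28 (fibroblasts at CT24 and SCN at CT3). The ribosomal protein median was −0.88 and −0.76 at the 2 fibroblast times, and −0.27, −0.49, −0.26 and −0.28 at the 4 SCN times. The ATF4 list had medians of 0.36 and 0.42 in fibroblasts and of 0.11, 0.30, 0.20 and 0.16 in the SCN. Both lists were thus farthest from 0 at CT9 within the SCN. The CT9 values include the saline library that stood apart, and the difference between times was not tested. Without that library, the ribosomal median over the 4 SCN times was −0.30 instead of −0.33, and that of the ATF4 list stayed at 0.21. The p53 medians were 0.69 and 0.90 in fibroblasts and stayed between −0.03 and 0.06 in the SCN. The plot of list medians by time shows these values.

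**Figure D4:**
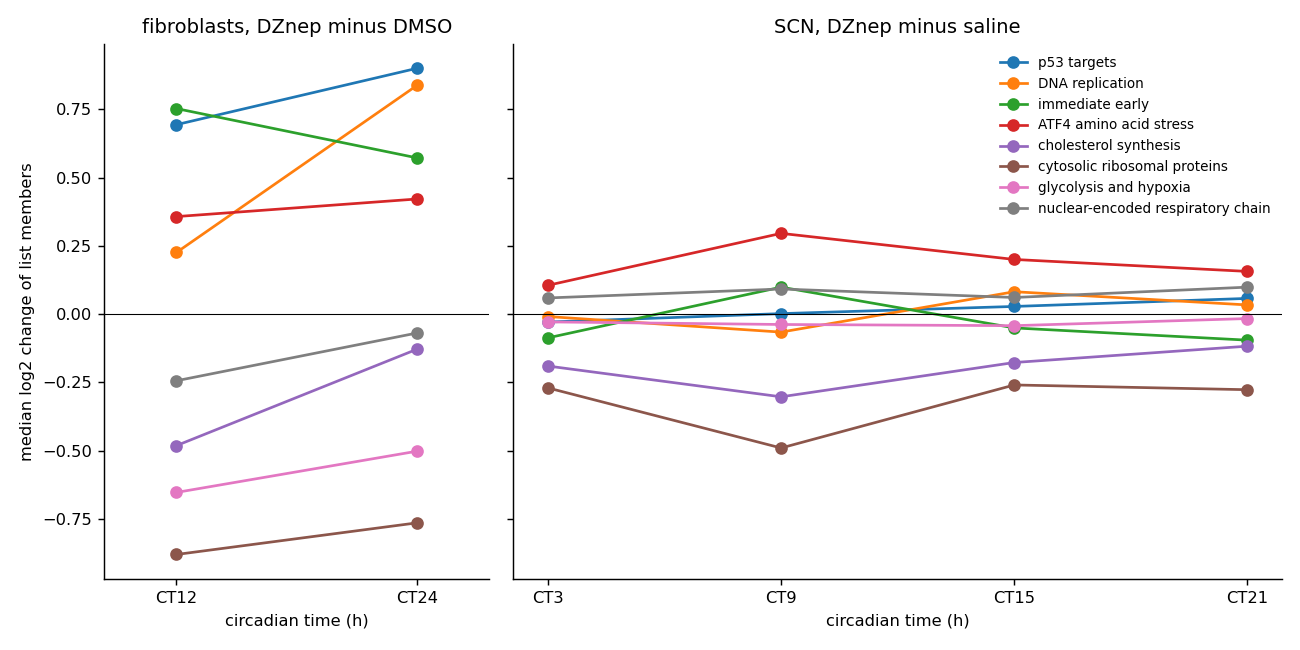
Median DZnep minus control log2 change of 8 gene lists at CT12 and CT24 in fibroblasts and at CT3, CT9, CT15 and CT21 in the SCN. Ribosomal protein genes stay under 0 at all 6 times (−0.88 to −0.26) and ATF4 genes above 0 (0.11 to 0.42), and DNA replication genes are at 0.23 at CT12 and 0.84 at CT24 in fibroblasts.

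Some genes could be tested in only 1 system. Of 1144 genes tested in fibroblasts alone, 805 passed (70.4%), and of 3560 tested in the SCN alone, 1112 passed (31.2%). The Hox genes, classical Polycomb targets, belonged to the fibroblasts alone: 23 of 30 were tested there and 0 in the SCN, so that their responses could not be compared.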

How the data were processed

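RNA-seq of 12 MEF and 31 SCN libraries was used. Per the submitters' processing notes, bcl2fastq 2.18.0.12, Trimmomatic 0.36, TopHat2 2.1.1 and Cufflinks 2.2.1 were used on mm10. The authors deposited a separate table for each arm, with a value per gene and library. No header names the unit, which was taken as FPKM from the named tool and the values. The annotation, the strand setting and the read depth are not stated in the labels or headers, so no counting interval can be given, an exact 0 can be a failed estimate, and reads of overlapping or antisense genes cannot be told apart. In each SCN table, the values of 537 repeated symbols were averaged, and the decimals of the SCN values look like means of several numbers, which could not be settled.

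From the deposited FPKM values, log2(FPKM + 1) was computed after libraries were rescaled to a common median ratio within each system. FPKM values in the text are as deposited. limma 3.58.1 (R 4.3.3) with an intensity trend gave the log2 changes and standard errors (written ± where a log2 change is given). All p-values are limma's with Benjamini-Hochberg adjustment over all genes tested in that system, and the threshold was 0.05. The difference, fibroblasts minus SCN, came from 1 limma fit over 43 libraries with a variance weight per system. Since a pseudocount of 1 is added, changes of low genes are understated. The code was tested on simulated data. Figures used matplotlib 3.10.9.

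Named were Ahcy, Ezh2, Eed and Suz12; of genes with a mean of at least 3 FPKM in each system, the 8 per direction shared, the 6 per direction opposite and the 6 per direction specific to a system with the largest changes; and up to 7 members of each described list. Other members named were chosen after their values were seen, and some members are not reported here. Members and lists were chosen with earlier results of these data known. Motifs were searched in RefSeq promoters of GRCm38.p6. Alternatives covered scaling, filters, pseudocount, size threshold, time windows, variance weights, a replicate block and leaving out each library. Of the 40 gene lists, 13 are described in the report and 5 in the closing observations.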

Additional observations from a re-analysis of the deposited data

Results flagged for a closer look

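The response differed between fibroblasts and the SCN, by limma's test of the difference, for 5570 of the common genes, among them most of the genes named above. The values below are fibroblast minus SCN differences of log2 changes.

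For Ahcy (−0.29) neither system passed by itself while the difference did. Among genes called in the same direction in both systems, the difference was above 0 for Ctgf (2.35), Anxa8 (2.0), Mdm2 (1.91), Aen (1.22), Fen1 (1.01), Slc7a5 (0.75), Slc7a1 (0.75), Cdc34 (0.68), Rrm1 (0.65) and Ccng1 (0.64). The same sign was found for Cars (0.63), Pspc1 (0.44), Cycs (0.43), Ythdf2 (0.38), Ythdf1 (0.36), Aars (0.27), Dnmt1 (0.25), Adk (0.23) and Csnk1d (0.14). Shared genes also had a difference below 0 for Aldoa (−1.22), Rps19 (−1.02), Zfp467 (−0.83), P4ha1 (−0.81), Meg3 (−0.80), Gpi1 (−0.76), Ptms (−0.72), Rpl7 (−0.65), Rpl14 (−0.64) and Rpl4 (−0.59). The same sign was found for Srebf2 (−0.51), Dbp (−0.50), Fdps (−0.47), Rpl5 (−0.42), Impdh2 (−0.40), Kdm6b (−0.39), Fbln5 (−0.35), Rpl3 (−0.33), Atp5a1 (−0.29) and Phf1 (−0.25). The same sign was found for Sdha (−0.20) and Nono (−0.17).

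Among genes called in opposite directions, the difference was above 0 for Marcksl1 (1.56), Junb (1.17), Tuba4a (0.91), Uap1l1 (0.88), Zfp956 (0.77), Ftsj3 (0.75), Ercc5 (0.65), Nr1d1 (0.58) and Ahcyl1 (0.48). Opposite genes also had a difference below 0 for Sepp1 (−1.67), Mpst (−1.50), Cetn4 (−1.09), Akr1e1 (−1.0), Clk4 (−0.93), Gstm1 (−0.89), Pfkl (−0.89), Phc1 (−0.48), Cbx6 (−0.47) and Mat2b (−0.42). The same sign was found for Uqcrb (−0.31).

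In genes called in fibroblasts alone, the difference was above 0 for Id1 (2.34), Irgm1 (2.18), Btg2 (1.93), Dusp4 (1.86), Hist1h4i (1.59), Thbd (1.53), Plk2 (1.35), Sesn2 (0.90), Odc1 (0.85) and Ier5 (0.82). The same sign was found for Mcm4 (0.76), Mcm7 (0.72), Slc3a2 (0.62), Cry1 (0.58), Eed (0.46), Slbp (0.38) and Suz12 (0.32). In genes called in fibroblasts alone, the difference was below 0 for Serpina3n (−2.47), Calml4 (−2.38), Tgfbi (−2.0), Ralgds (−1.79), Olfml3 (−1.76), Enpp2 (−1.75), Bnip3 (−1.31), Hlf (−1.24), Pdk1 (−1.12) and Sesn1 (−1.06). The same sign was found for Nfil3 (−0.65), Ndufs1 (−0.38) and Sms (−0.34).

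For genes called in the SCN alone, the difference was above 0 for Pak3 (0.82), Ago2 (0.70), Srp54c (0.60), Dcun1d4 (0.57), Hspa1a (0.57) and Impact (0.57). For genes called in the SCN alone, the difference was below 0 for Dynlt1b (−0.59), Taf15 (−0.57), Ict1 (−0.54), Hmgn5 (−0.54), Pot1a (−0.52), Mrpl54 (−0.48), Ezh2 (−0.35), Cox6c (−0.31), Rbm14 (−0.26) and Fto (−0.18).

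For some groups of 6 fibroblast libraries a single library lay far from the nearest of the others, by Dixon's criterion. Its cutoff is met by about 1 in 20 groups drawn from a single normal distribution. The groups here pool CT12 with CT24 and share libraries, so that this rate need not hold for them. It was met by 13 of 266 groups. Of these, 7 were replicate 2 of DMSO at CT24, the library that stood apart. Among DMSO libraries the highest was 62.4 FPKM for Meg3, 39.8 for Clk4 (next 27.1), 10.4 for Pak3 (1.70), 37.0 for Impact (29.1), 43.2 for Mdm2 (35.4) and 196 for Malat1 (96.5). The lowest DMSO library was 386 FPKM for Rpl3 (next 716), 35.8 for Uqcrfs1 (54.4) and 0.591 for Dusp4 (1.09). Among DZnep libraries the highest was 17.0 FPKM for Sepp1 (7.18), 10.3 for Akr1e1 (8.51) and 167 for Mdm2 (157), and the lowest was 29.4 for Ythdf1 (31.6).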

How the results depend on the processing

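The depth behind the FPKM values is unknown, which limits what can be said of low genes, and the system is bound to kit, dose, delivery and times in every alternative. The correlation of the changes stayed positive under every alternative, between 0.22 and 0.35, against 0.30. On the values as deposited, 1071 genes were lower in the SCN (1737 after rescaling), 582 lower in both (942) and 185 higher in fibroblasts and lower in the SCN (282). With a mean of 5 FPKM or more asked for, fewer genes were tested, and 1715 were higher and 1744 lower in fibroblasts, 1116 lower in the SCN, 600 lower in both, 171 and 222 opposite (higher and lower in fibroblasts), and 2998 differed. With a change of 1 or more asked for, 154 were higher and 255 lower in fibroblasts, 0 higher and 1 lower in the SCN, 0 higher and 1 lower in both, 0 and 0 opposite, and 366 differed. In the window of CT12 against CT9 and CT15, which has fewer libraries, 1200 were higher in the SCN, 422 higher and 538 lower in both, and 153 and 206 opposite. In the window of CT24 against CT3 and CT21, 1047 were higher and 989 lower in the SCN, 510 higher and 521 lower in both, and 112 and 129 opposite. Of the 1814 genes shared in direction, 1399 remained as deposited, 1558 with quantile normalization, 879 and 931 in the windows, and 1705 without both libraries that stood apart, a setting chosen after seeing the data that called 6141 differences.

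Leaving out each library in turn gave 2954 to 3404 genes higher and 3010 to 3397 lower in fibroblasts, 1698 to 2011 higher and 1585 to 1840 lower in the SCN, 796 to 950 higher and 861 to 985 lower in both, 256 to 308 and 310 to 385 opposite, 5138 to 6038 differences and an r of 0.29 to 0.31. Libraries with the same replicate number were not consistently alike, with correlations of −0.28 to 0.232 in fibroblasts and of −0.162 to 0.131 in the SCN. Over 0.1 were 3 of 6 fibroblast pairs and 1 of 15 SCN pairs, and so few libraries per group cannot decide whether they were paired. With the replicate number as a block, 3146 genes were higher and 3187 lower in fibroblasts, 1798 higher and 1696 lower in the SCN, 848 higher and 913 lower in both, and 5537 differed.

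Of 20952 values of named genes under alternatives, 237 lost and 139 gained the call. A further 10 changed sign while called in the main fit or in the alternative. Sign changes of values called in neither were not counted. With quantile normalization Atp5a1 was 0.016 in the SCN and the Rpl3 difference 0.10. In the CT12 window Nr1d1 was 0.075 in the SCN, and the differences of Dcun1d4 and Wtap were −0.27 and −0.51. In the CT24 window Insig1, Hmgcs1 and Cry1 were 0.43, 0.093 and −0.23 in fibroblasts, P4ha1 was 0.060 in the SCN and the Cry1 difference was −0.22. The cause of these changes was not tested. The SCN call of P4ha1 was lost on leaving out any of 20 libraries.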

Other observations

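Names in this section were chosen after their values were seen. Genes of the bone morphogenetic protein and TGF-beta response rose in fibroblasts for 9 of 12 members and fell for 2. In the SCN 2 rose and 1 fell. Of all common genes, 32.5% rose and 32.8% fell in fibroblasts, and 18.9% rose and 17.8% fell in the SCN. The list's share that rose in the SCN was near the background, and the share that fell was under it. In the SCN 4 rose without the saline library at CT9 that stood apart or replicate 3 of DZnep at CT3. Leaving out any 1 of the DZnep fibroblast libraries at CT12 took members under the expression minimum in fibroblasts. Of the members left, 1 rose and 0 fell in the SCN, whose calls do not use fibroblast libraries. The medians of all 12 members were 0.74 and 0.07, and 9 had a called higher fibroblast change, against a background of 28.2%. The inhibitors of differentiation Id1, Id2, Id3 and Id4 rose by 2.33, 1.95, 1.17 and 1.33 in fibroblasts. Of these 4 only Id2 passed in the SCN, at 0.18, and the others were at −0.00, −0.15 and 0.09. Collagens and matrix genes were lower in fibroblasts for 16 of 26 members and higher for 4. In the SCN 5 were lower and 1 higher. Against the same backgrounds, only the share lower in fibroblasts stood far above that of all genes. Col3a1, a fibrillar collagen, fell in both, with −2.60 in fibroblasts and −0.31 in the SCN. Thbs1, a matricellular glycoprotein, rose by 4.60 in fibroblasts and was at 0.02 in the SCN. The fibroblast marker list contains Col1a1 and Col1a2, which are members of this list too.

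Targets of the glucocorticoid receptor were looked at since all fibroblasts, DZnep and DMSO alike, had received dexamethasone. Of 15 genes, 5 rose and 9 fell in fibroblasts, and 5 rose and 0 fell in the SCN. At an unadjusted p under 0.05 in limma, 7 rose and 0 fell in the SCN. Of all common genes, 32.5% rose and 32.8% fell in fibroblasts, and 18.9% rose and 17.8% fell in the SCN. The list's share that rose in fibroblasts was thus near that of all genes. The background for opposite directions was 6.44%. Fkbp5, Tsc22d3, Errfi1 and Glul went opposite ways, with −0.29, −0.34, −0.53 and −0.26 in fibroblasts and 0.28, 0.23, 0.22 and 0.39 in the SCN. The metallothioneins Mt1 and Mt2 fell by 1.21 and by 1.64 in fibroblasts and were at 0.07 and −0.09 in the SCN. In the SCN 8 members passed as higher without the saline library at CT9 that stood apart.

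Of 14 imprinted genes, 3 rose in both systems (Igf2, Nnat and Peg10), 4 fell in both (Meg3, Mest, Grb10 and Sgce) and 0 went opposite ways. Of all common genes, 8.94% rose in both, 9.66% fell in both and 6.44% went opposite ways. With 14 genes, the absence of opposite ones says little. Dlk1 fell by 0.34 in fibroblasts and was at 0.00 in the SCN. Of 20 histone lysine methyltransferase genes, which encode enzymes that DZnep holds back indirectly, 12 rose and 2 fell in fibroblasts, and 4 rose and 4 fell in the SCN. The backgrounds were 32.5% and 32.8% of common genes in fibroblasts and 18.9% and 17.8% in the SCN, so that the SCN shares were near those of all genes. Dot1l, Setd8 and Dpy30 rose in both, by 0.46, 0.47 and 0.38 in fibroblasts and by 0.20, 0.15 and 0.15 in the SCN.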
